A study of Mus musculus with 8 samples.

Results

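The 10 genes below, which mark mast cells, were followed in mouse wound skin: Cpa3, Mcpt4, Cma1, Tpsb2, Tpsab1, Fcer1a, Ms4a2, Hdc, Mrgprb2 and Gata2. They were chosen by name, and a gene was taken where the identifier of a row of the count table equalled its symbol. Of the 10 genes, 9 had a row among the 18540 genes of the table, and all 9 passed the low-count filter that kept 15147 genes. Tpsab1 had no row in the table, and the RefSeq annotation of the mouse assembly GRCm38.p6 lists it as a transcribed pseudogene.

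The samples were 4 libraries of control wounds (con1, con2, con3 and con5) and 4 libraries of wounds treated with the nanocomposite ZnO2/CeO2@ZIF-8 (shiyan1, shiyan2, shiyan4 and shiyan5). The sample numbers of the treated libraries match those that the study gives to Z1C2Z, the composite with more CeO2 than ZnO2. In the wound experiments the composite was injected around the wound at 100 μg/kg, and the control wounds received PBS. The sequenced tissue of the treated group was taken after 15 days of treatment, and no day is stated for the controls. The study wounded C57BL mice of 6 weeks and db/db mice of 10 weeks, a diabetic strain that lacks a working leptin receptor, with a pair of wounds per mouse. The strain of the sequenced samples and the mouse that each came from are not stated, so the p-values below measure the spread between these samples, which may in part be technical.

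Mast cells are resident cells of the dermis that store proteases, proteoglycans and histamine in granules and release them within minutes when they are stimulated. The connective tissue type found in skin contains the chymases Mcpt4 and Cma1, tryptase and carboxypeptidase A3, depends on stem cell factor and its receptor Kit, and is armed by IgE bound to the high-affinity receptor FcεRI. It can also be stimulated without IgE, for example by cationic peptides through Mrgprb2.

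The promoters of 8 of the 10 genes were found in the RefSeq table for GRCm38.p6, which gives 250 bases before and 50 after a transcription start, with 9 windows because Gata2 has more than 1 start. The sequences shown are those of the carboxypeptidase and of the chymase with the highest level, of the receptor chain with the most matches, and of the gene with the largest difference between the groups. Capitals mark the word bound by GATA factors, searched on both strands as AGATAA or AGATAG or TGATAA or TGATAG, so that a match on the other strand appears as its reverse complement.
Cpa3, chr3:20242132-20242431, minus strand: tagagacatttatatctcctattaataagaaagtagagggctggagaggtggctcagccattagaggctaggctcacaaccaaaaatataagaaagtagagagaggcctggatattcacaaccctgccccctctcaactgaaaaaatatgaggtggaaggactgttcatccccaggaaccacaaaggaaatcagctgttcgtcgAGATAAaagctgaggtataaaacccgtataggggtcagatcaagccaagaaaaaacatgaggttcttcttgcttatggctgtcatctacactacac
Mcpt4, chr14:56062261-56062560, minus strand: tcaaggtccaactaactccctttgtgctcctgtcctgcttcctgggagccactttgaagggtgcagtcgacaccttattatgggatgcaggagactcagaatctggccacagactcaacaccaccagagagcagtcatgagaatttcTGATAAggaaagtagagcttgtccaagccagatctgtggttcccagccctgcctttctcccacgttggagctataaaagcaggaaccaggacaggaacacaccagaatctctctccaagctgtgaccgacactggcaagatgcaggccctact
Ms4a2, chr19:11623670-11623969, minus strand: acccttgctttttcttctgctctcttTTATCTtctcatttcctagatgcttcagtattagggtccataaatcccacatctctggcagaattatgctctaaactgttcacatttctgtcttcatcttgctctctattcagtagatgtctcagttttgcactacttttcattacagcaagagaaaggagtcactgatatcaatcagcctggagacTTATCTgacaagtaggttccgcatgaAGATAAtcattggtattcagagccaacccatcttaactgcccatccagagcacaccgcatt
Hdc, chr2:126618629-126618928, minus strand: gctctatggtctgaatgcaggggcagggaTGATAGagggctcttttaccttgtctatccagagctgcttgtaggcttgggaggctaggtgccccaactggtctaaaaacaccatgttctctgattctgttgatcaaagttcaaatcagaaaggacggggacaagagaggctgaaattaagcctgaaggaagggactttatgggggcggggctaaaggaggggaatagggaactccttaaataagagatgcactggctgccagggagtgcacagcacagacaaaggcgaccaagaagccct
At least 1 GATA word was present in 7 of the 9 windows, those of Cpa3, Mcpt4, Cma1, Fcer1a, Ms4a2, Hdc and Mrgprb2, whereas 29.8% of all 32851 promoter windows of the table held one. Ms4a2 had 3 matches and each of the other 6 genes had 1. The match of Cpa3 began 46 bases before the start, that of Mrgprb2 48 bases before it and that of Hdc 221 bases before it. The E-box words CATGTG and CACGTG, searched on both strands, occurred in 1 of the 9 windows, that of Fcer1a, against 20.4% of all windows. These matches describe the letters of the windows and are not binding sites measured in these samples.

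Between 28856790 and 38974888 reads per library were counted on genes, and a member gene had between 85 and 2518 counts in a library. Levels are given as CPM, the count scaled to a common library size (counts per 1e6 reads) after TMM normalization. The first principal component held 62.2% of the variance. On it shiyan2 and shiyan4 lay at the upper end, at 65.7 and 67.7, and con5 and con1 at the lower end, at -62.9 and -50.6. All controls lay below all treated samples, with con3 at -12.2 and shiyan5 at -0.29 nearest to each other. Genes of dermis, hair and macrophages were detected in every library, with summed levels of 43054 to 78015 CPM for 6 fibroblast markers, 549 to 14846 CPM for 7 hair shaft and root sheath genes and 1547 to 2935 CPM for 8 macrophage markers. Of the 7 hair genes, 6 were called higher in the treated samples, beside 4.28% of all tested genes. Of the 6 fibroblast markers, 2 were called lower, Dcn and Lum, beside 3.85% of all tested genes. All 6 fibroblast markers and all 8 macrophage markers had a log2 fold change below 0, and 0 of the macrophage markers were called.

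None of the 9 mast cell genes was called higher or lower in the treated samples by edgeR's quasi-likelihood test at a Benjamini-Hochberg adjusted p under 0.05, the lowest adjusted p being 0.117. Over all tested genes, 3.85% were called lower and 4.28% were called higher. DESeq2 also called 0 of the 9 members, and 2 members, Hdc and Gata2, had an unadjusted p under 0.05 in edgeR, a threshold that 28.0% of all tested genes passed. Of the members, 8 had a lower mean in the treated samples and 1, Mrgprb2, a higher one. Their median log2 fold change was -0.24, beside 0.0086 over all tested genes, and their median absolute change of 0.245 lay close to the 0.215 of all genes. The median log2 fold change was also below 0 for fibroblast (-0.55), endothelial (-0.71), neutrophil (-1.15), macrophage (-0.37), basophil (-0.49), muscle (-0.60) and adipocyte markers (-0.47). It was above 0 for hair genes (2.70) and melanocyte markers (1.48). In bulk tissue, fewer mast cells, less RNA per mast cell and a different mix of other cells cannot be told apart.

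**Figure D1:**
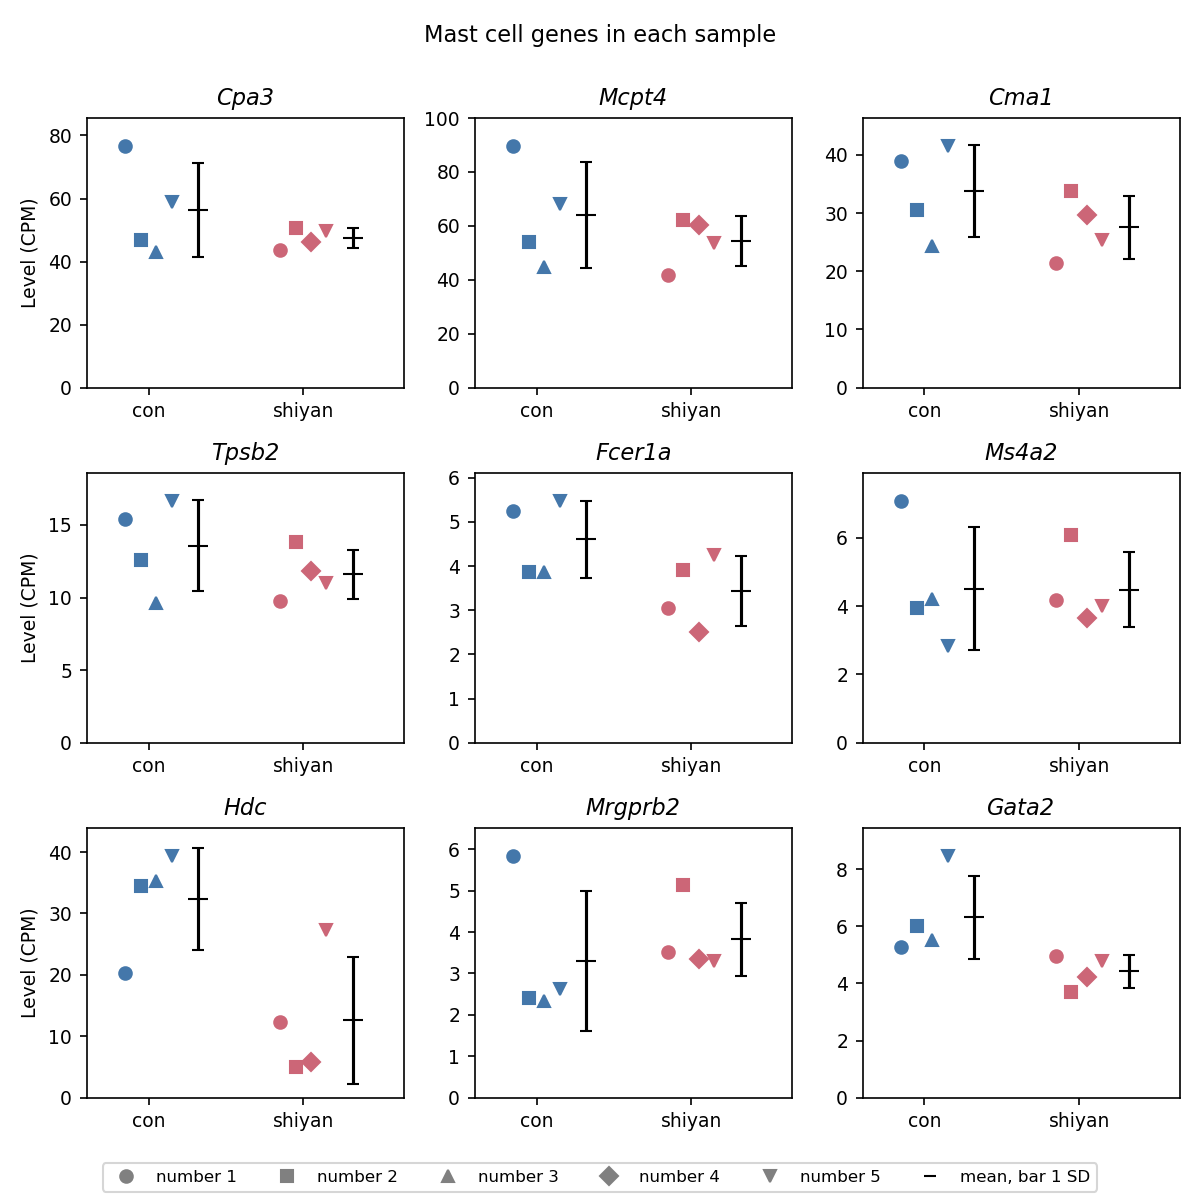
Level in CPM of each of the 9 mast cell genes in the 4 con and the 4 shiyan samples, 1 panel per gene, with the group mean and 1 SD beside the points and the point shape giving the sample number. The groups overlap for 8 genes, and for Gata2 all 4 shiyan samples, at 3.70 to 4.96 CPM, sit below the lowest con sample at 5.29 CPM.

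Cpa3 (Entrez 12873), the carboxypeptidase that mast cells store bound to heparin, had 76.5, 46.9, 43.2 and 58.8 CPM in con1, con2, con3 and con5 and 43.7, 50.6, 46.4 and 49.6 CPM in shiyan1, shiyan2, shiyan4 and shiyan5. The treated samples lay close together inside the wider range of the controls, which con1 extended upwards. The means were 56.4 ± 15.01 CPM in controls and 47.5 ± 3.14 CPM in treated samples (SD, n = 4 each). The log2 fold change was -0.24 ± 0.17 (SE), with a 95% interval from -0.63 to 0.14. It did not pass edgeR's test (adjusted p = 0.375).

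Mcpt4 (Entrez 17227), the chymase regarded as the counterpart of human chymase in function, had 89.5, 53.8, 44.7 and 68.3 CPM in the controls and 41.7, 62.2, 60.2 and 53.6 CPM in the treated samples, in the same order. Here too con1 was highest and the groups overlapped. The log2 fold change was -0.23 ± 0.21, with a 95% interval from -0.72 to 0.25 (edgeR adjusted p = 0.504).

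Cma1 (Entrez 17228), the second chymase, had 38.9, 30.5, 24.3 and 41.4 CPM in the controls and 21.4, 33.9, 29.6 and 25.4 CPM in the treated samples. Tpsb2 (Entrez 17229), a tryptase that forms tetramers in the granule, had 15.4, 12.6, 9.61 and 16.6 CPM against 9.76, 13.8, 11.8 and 11.0 CPM. For both genes con1 and con5 lay above all treated samples, and con2 and con3 lay among them or, for the con3 level of Tpsb2, below them. The log2 fold changes were -0.29 ± 0.19 for Cma1 (95% interval -0.73 to 0.14, edgeR adjusted p = 0.355) and -0.23 ± 0.18 for Tpsb2 (-0.64 to 0.19, edgeR adjusted p = 0.455). How reads shared between tryptase genes of similar sequence were assigned is not given in the sources used here, so the level of Tpsb2 is uncertain to that extent.

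The summed level of the 4 protease genes was 168 ± 43.8 CPM in controls and 141 ± 18.5 CPM in treated samples (n = 4 each). Relative to Cpa3 in the same sample, the log2 ratio of Mcpt4 differed by 0.0079 between the group means and that of Tpsb2 by 0.0045, while over the 8 samples these ratios spanned 0.45 and 0.49. The ratio of Cma1 differed by -0.07 and spanned 0.53. For all 4 genes con1 and con5 were the highest controls and con3 and shiyan1 the lowest samples, whereas the order of the other samples differed between genes. Leaving out single samples moved the log2 fold change of Cpa3 between -0.35 and -0.0671 and that of Mcpt4 between -0.37 and -0.0356, in both cases smallest without con1. Cma1 lay between -0.42 and -0.17 and Tpsb2 between -0.36 and -0.11, smallest without con5.

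Skeletal muscle markers followed a like order among the controls, but not among the treated samples. Of these, shiyan1 had the highest muscle sum but the lowest protease sum, 116 CPM. The lowest muscle sum was that of shiyan2, which had the highest protease sum of the treated group, 160 CPM. The summed level of 6 such markers was 4539, 2586, 2242 and 3236 CPM in con1, con2, con3 and con5 and 2153, 1972, 2037 and 2078 CPM in shiyan1, shiyan2, shiyan4 and shiyan5. Their log2 fold changes were all below 0, with a median of -0.60, and edgeR called 1 of them lower, Acta1, the skeletal muscle actin. With a muscle score as covariate the fold changes of the 4 proteases turned to values above 0, between 0.0448 and 0.31 on the log2 scale, and none was called. The muscle sums of the groups did not overlap, so this fit cannot separate the score from the group.

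**Figure D2:**
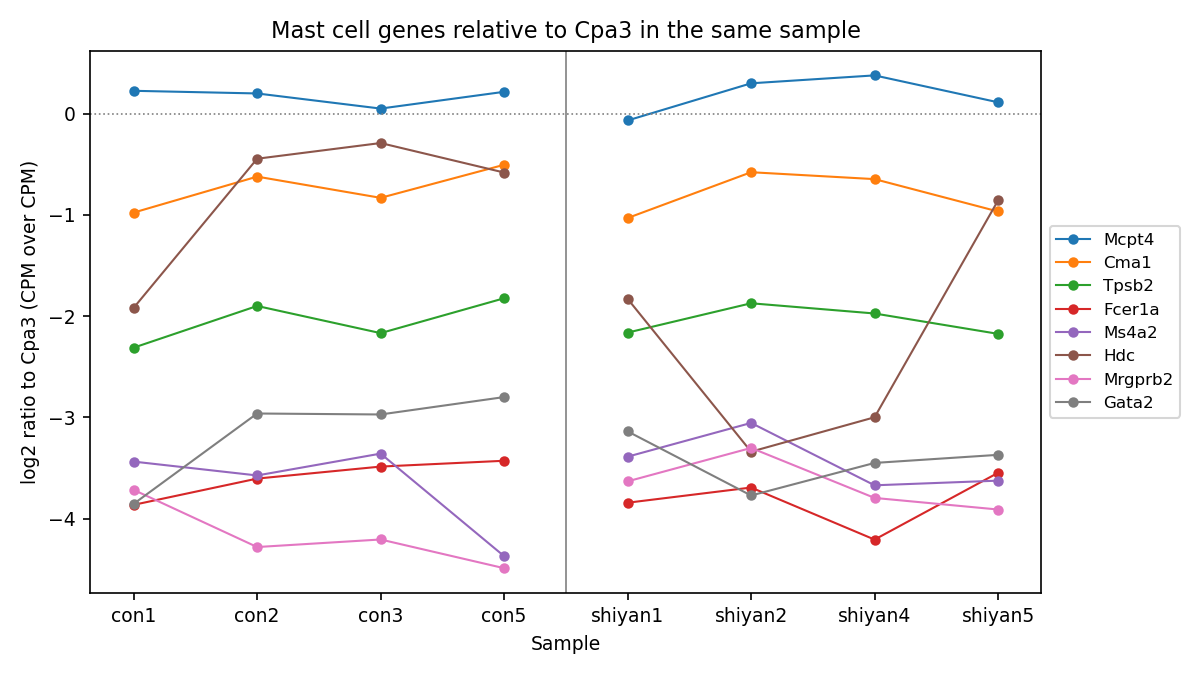
Log2 ratio of the level of each of 8 mast cell genes to that of Cpa3 in the same sample, with the 4 con samples on the left and the 4 shiyan samples on the right, lines joining the points of a gene within a group. The protease lines Mcpt4, Cma1 and Tpsb2 span 0.45 to 0.53 across the samples, whereas Hdc spans 3.05.

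The IgE receptor FcεRI consists of an IgE-binding alpha chain, a signal-amplifying beta chain and a gamma chain shared with other receptors. Fcer1a (Entrez 14125), the alpha chain, had 5.26, 3.86, 3.86 and 5.46 CPM in the controls and 3.05, 3.91, 2.51 and 4.24 CPM in the treated samples. The low treated values were those of shiyan1 and shiyan4, and the other treated samples lay between the controls. Means were 4.61 ± 0.873 and 3.43 ± 0.792 CPM, and the log2 fold change of -0.43 ± 0.22 had a 95% interval from -0.93 to 0.07 (edgeR adjusted p = 0.242).

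Ms4a2 (Entrez 14126), the beta chain, had 7.07, 3.94, 4.21 and 2.84 CPM in the controls and 4.17, 6.09, 3.64 and 4.02 CPM in the treated samples. The highest and the lowest level of all 8 samples were both in controls, con1 and con5, and the group means of 4.52 ± 1.80 and 4.48 ± 1.09 CPM lay within 0.1 CPM of each other. The 95% interval of the log2 fold change, from -0.66 to 0.65, leaves room for changes in either direction (edgeR adjusted p = 0.989). Fcer1g, the gamma chain, which macrophages and neutrophils also express, is no member and was added here after its values were seen. It had 55.8 ± 5.67 CPM in controls and 37.9 ± 8.27 CPM in treated samples (log2 fold change -0.56 ± 0.15, edgeR adjusted p = 0.0562).

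Hdc (Entrez 15186), histidine decarboxylase, the enzyme that makes histamine, showed the largest difference among the members. It had 20.3, 34.4, 35.3 and 39.3 CPM in con1, con2, con3 and con5, and 12.3, 5.00, 5.80 and 27.4 CPM in shiyan1, shiyan2, shiyan4 and shiyan5. In shiyan1, shiyan2 and shiyan4 the level lay below all controls, whereas in shiyan5 it lay above con1, so the groups overlapped. The means were 32.3 ± 8.32 and 12.6 ± 10.4 CPM (SD, n = 4 each).

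The log2 fold change of Hdc was -1.36 ± 0.50, with a 95% interval from -2.49 to -0.23, and it missed the threshold (edgeR adjusted p = 0.117). When the 70 ways to split the samples 4 against 4 were enumerated, the exact permutation test (two-sided) gave p = 0.0571, the smallest p possible being 0.0286. Without shiyan5 the log2 fold change was -2.08 and Hdc was called lower (edgeR adjusted p = 0.0158), which was the only alternative in which any member was called. Over the 16 alternatives the change lay between -2.08 and -0.48 and the adjusted p between 0.0158 and 1.00.

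Hdc is also expressed by basophils and by myeloid cells such as neutrophils, so the markers of these cells are given beside it. The summed level of 7 neutrophil markers was 578, 979, 1504 and 1323 CPM in con1, con2, con3 and con5 and 550, 392, 169 and 663 CPM in shiyan1, shiyan2, shiyan4 and shiyan5. The samples with least Hdc, shiyan2 and shiyan4, also had the lowest neutrophil sums, and shiyan5 had the highest sum of the treated group. All 6 neutrophil markers that were tested had a log2 fold change below 0, with a median of -1.15, and edgeR called 0 of them. Their part in the level of Hdc was not tested.

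The summed level of 5 basophil markers was 12.02 to 17.5 CPM in controls and 8.59 to 10.6 CPM in treated samples. The 4 markers tested all had a log2 fold change below 0, with a median of -0.49, and edgeR called 0 of them. The basophil protease Mcpt8 had 25 to 37 counts per control library and 4 to 23 per treated library, and Prss34, the other basophil protease of the list, was under the filter. Mcpt8 did not pass edgeR's test (log2 fold change -1.37 ± 0.53, adjusted p = 0.131). Every treated sample lay below every control for Mcpt8, as for 8.82% of all tested genes. Cd200r3, another marker of the list, had 1.11 ± 0.495 and 1.01 ± 0.301 CPM (log2 fold change -0.13). The ratio of Hdc to Cpa3 differed by -1.45 on the log2 scale between the groups, and this ratio overlapped between them.

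**Figure D3:**
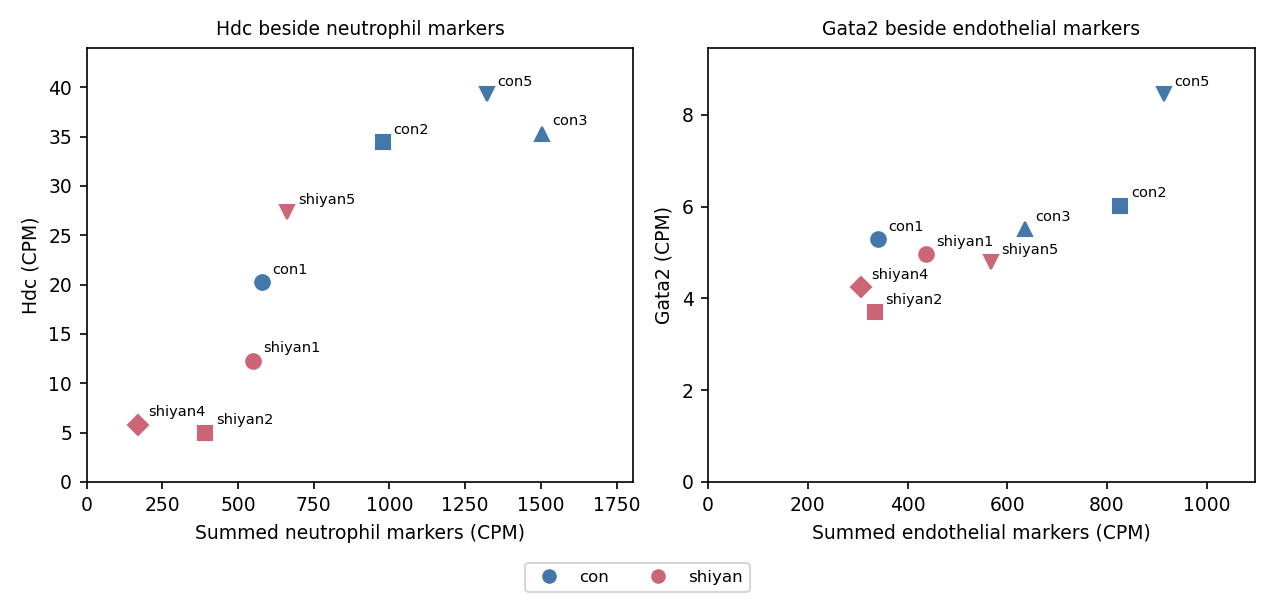
Level of Hdc against the summed level of 7 neutrophil markers (left) and of Gata2 against the summed level of 8 endothelial markers (right), both in CPM, with 1 labelled point per sample. The samples shiyan2 and shiyan4 have the lowest Hdc levels, 5.00 and 5.80 CPM, and the lowest neutrophil sums. The highest Gata2 level, 8.45 CPM, and the highest endothelial sum are both those of con5. In con1 the endothelial sum, 341 CPM, is below those of shiyan1 and shiyan5, whereas its Gata2 level is above theirs.

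Mrgprb2 (Entrez 243979), the receptor for cationic peptides, was the single member with a higher mean in the treated samples. Its levels were 5.83, 2.41, 2.34 and 2.62 CPM in the controls and 3.53, 5.13, 3.34 and 3.30 CPM in the treated samples. All treated samples lay above 3 of the 4 controls and below con1. The log2 fold change of 0.22 ± 0.33 had a 95% interval from -0.52 to 0.95 (edgeR adjusted p = 0.695). It was 0.63 without con1 (edgeR adjusted p = 0.0916) and 0.0499 without shiyan2, and 1.021 with the muscle score and 0.77 with a hair score as covariate, and Mrgprb2 was called in none of these fits.

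Gata2 (Entrez 14461), a transcription factor needed for mast cell and basophil development, was the only member whose groups did not overlap. It had 5.29, 6.02, 5.51 and 8.45 CPM in the controls and 4.96, 3.70, 4.24 and 4.80 CPM in the treated samples, and every treated sample lay below every control. The same held for 8.82% of all tested genes, and in the opposite direction for 8.45%. Its log2 fold change of -0.51 ± 0.19 (95% interval -0.94 to -0.08) did not pass edgeR's test (adjusted p = 0.119). Because the groups did not overlap, the exact two-sided permutation test had to give the smallest p that it allows, 0.0286, and adds nothing to that. For the members other than Hdc and Gata2 the same test gave p between 0.171 (Fcer1a) and 0.914 (Ms4a2). The 16 alternatives moved the change of Gata2 from -0.59 to -0.14 and the adjusted p from 0.0632 to 1.00.

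Endothelial cells also express Gata2. The summed level of 8 endothelial markers was 341, 827, 635 and 913 CPM in con1, con2, con3 and con5 and 436, 335, 306 and 567 CPM in shiyan1, shiyan2, shiyan4 and shiyan5, so that con5 was highest for both and the groups overlapped for the markers. Their median log2 fold change was -0.71 and edgeR called 0 of 8. Their part in the level of Gata2 was not tested.

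**Figure D4:**
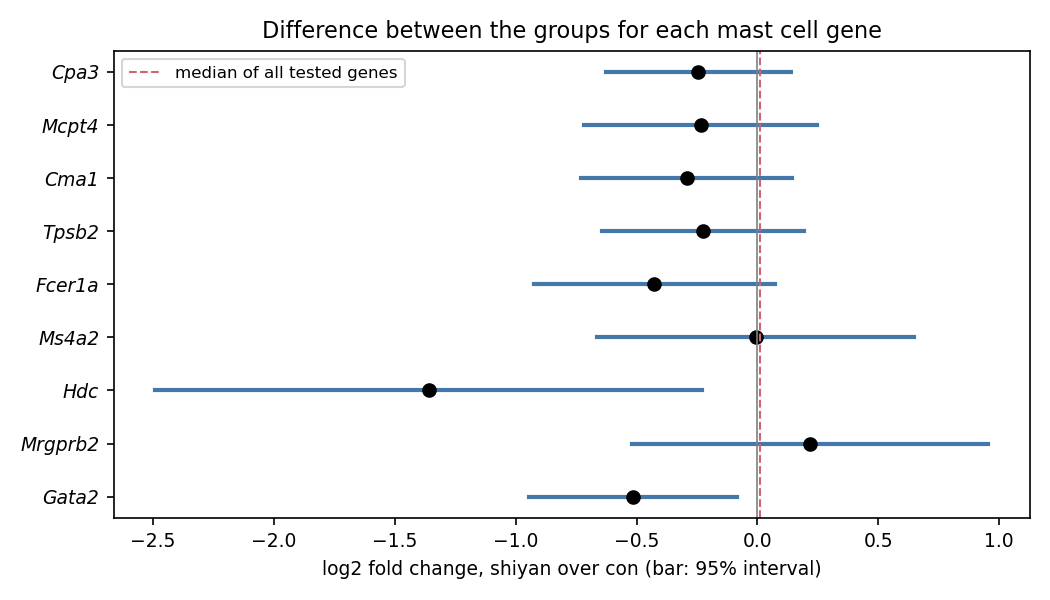
Log2 fold change of each of the 9 mast cell genes, shiyan over con, with its 95% interval, and a dashed line at the median of all tested genes. The 4 proteases sit between -0.29 and -0.23 with intervals across 0, and the intervals of Hdc and Gata2 lie below 0 although neither passed the adjusted threshold.

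Per length, the level was highest for the proteases. As a mean over the 8 samples, Mcpt4 had 53.5 CPM per kilobase of exon, Cpa3 34.2, Cma1 28.1 and Tpsb2 7.89 CPM per kilobase. Fcer1a followed with 4.03 and Hdc with 3.52 CPM per kilobase, and Mrgprb2 with 1.71, Ms4a2 with 1.60 and Gata2 with 0.995 CPM per kilobase were lowest. Neighbours in this order overlapped in their ranges over the samples, apart from Cma1 and Tpsb2 and from Tpsb2 and Fcer1a, and Hdc had the widest relative range, from 0.783 to 6.15 CPM per kilobase. All 9 members added up to 264, 194, 173 and 244 CPM in the controls and 145, 184, 168 and 183 CPM in the treated samples, with con1 and con5 highest. The sums were 219 ± 42.3 and 170 ± 18.6 CPM, and the proteases made up 75.9% ± 5.51 of the sum in controls and 83.0% ± 5.71 in treated samples. This share depends on Hdc, which made up 7.67%, 17.7%, 20.4% and 16.1% of the sum in con1, con2, con3 and con5. In shiyan1, shiyan2, shiyan4 and shiyan5 Hdc made up 8.51%, 2.71%, 3.46% and 14.9%.

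The genes whose profile over the 8 samples was closest to that of the members were sought by the root mean square difference of centred log2 levels from the mean profile of the members. Zdhhc2, a palmitoyltransferase, was closest at 0.0522, followed by Scoc at 0.0739 and Soat1, which esterifies cholesterol, at 0.0872. Cpa3 itself differed from this mean profile by 0.124, and 59 genes outside the list were closer than it. Hdc differed by 0.991.

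Beyond the members, 94 genes linked to mast cells were listed in 9 groups, of which 76 passed the filter. Of these, 6 (7.89%) were called lower and 1 was called higher, beside the 3.85% and 4.28% over all tested genes. Most of these genes are not restricted to mast cells. Without con5, shiyan1, shiyan2 or shiyan4, each left out alone, 0 of them were called lower and none higher, without con2 3 were called lower, and without shiyan5 16 were. Calls over all tested genes moved in the same settings. They were 0 lower and 0 higher without con5, shiyan1, shiyan2 or shiyan4, 98 and 25 without con2, and 859 and 886 without shiyan5.

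The group of growth and alarmin receptors and their ligands had 3 of 13 genes called lower and none higher. Il1rl1, the receptor for the alarmin interleukin 33, fell from 165, 166, 154 and 315 CPM in the controls to 31.7, 24.5, 26.4 and 46.7 CPM in the treated samples. The groups did not overlap for Il1rl1, as in this direction for 8.82% of all tested genes. Its log2 fold change was -2.63 ± 0.29 (edgeR adjusted p = 0.0232). Il4ra, the interleukin 4 receptor chain, fell from 226 ± 62.8 to 87.9 ± 39.0 CPM (-1.36 ± 0.33, edgeR adjusted p = 0.0414), and Csf2rb, the shared beta chain of the receptors for interleukin 3, interleukin 5 and GM-CSF, from 77.0 ± 13.4 to 35.7 ± 16.2 CPM (-1.11 ± 0.29, edgeR adjusted p = 0.0497).

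The ligand Il33 had 588 ± 362 and 199.6 ± 128 CPM in controls and treated samples (log2 fold change -1.56 ± 0.59, edgeR adjusted p = 0.123). Kit, a receptor that mast cells depend on and that melanocytes also carry, was added here after its values were seen. It had 25.2, 39.8, 37.4 and 33.3 CPM in the controls and 40.0, 40.6, 34.4 and 35.0 CPM in the treated samples. The levels of the groups overlapped, and the log2 fold change was 0.14 ± 0.14 with a 95% interval from -0.18 to 0.47 (edgeR adjusted p = 0.541). Kitl, the stem cell factor that binds it, had 91.1 ± 7.46 and 103 ± 7.45 CPM (0.18 ± 0.09, edgeR adjusted p = 0.227).

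Among transcription factors of mast cells, 2 of 11 were called lower and 1 higher. Runx1, a factor of many blood cells, fell from 107.6 ± 6.96 to 62.2 ± 16.5 CPM (log2 fold change -0.79 ± 0.18, edgeR adjusted p = 0.0356), and Bhlhe40 fell from 167 ± 48.6 to 91.7 ± 10.6 CPM (-0.86 ± 0.20, edgeR adjusted p = 0.0371). Mitf, which mast cells and melanocytes both need, rose from 34.3 ± 4.87 to 52.0 ± 7.24 CPM (0.60 ± 0.14, edgeR adjusted p = 0.0365). Beside it, all 5 melanocyte markers were called higher, their sum being 117 to 209 CPM in controls and 268 to 612 CPM in treated samples. Their part in the level of Mitf was not tested. Gata1 did not pass the filter.

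In the remaining groups 1 gene was called. Il6, among 8 cytokines and chemokines tested, fell from 84.3 ± 90.5 to 1.85 ± 1.19 CPM (log2 fold change -5.51 ± 1.23, edgeR adjusted p = 0.0356), and many cells besides mast cells make it. Its control mean rested on con1 and con5, at 174 and 150.1 CPM, while con2 and con3 had 5.19 and 7.49 CPM and the treated samples at most 3.47 CPM. In the same group Vegfa had -1.56 ± 0.50 and Ccl2 -3.07 ± 0.88 on the log2 scale without passing the test (edgeR adjusted p = 0.0844 and 0.0626), and con1 and con5 were again the controls that stood above the rest.

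For granule contents, edgeR called 0 of 7 genes. Srgn, the proteoglycan core that holds the proteases and that other blood cells also make, had 195 ± 41.2 and 116 ± 74.5 CPM (log2 fold change -0.74 ± 0.40, edgeR adjusted p = 0.256). Cd63 of the granule membrane differed by -0.47 ± 0.13 on the log2 scale (edgeR adjusted p = 0.0561). Slc18a2, which loads histamine into granules, was added after its values were seen and had 2.48 ± 0.862 and 2.40 ± 0.416 CPM. The levels of this transporter overlapped between the groups.

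Of the genes for histamine breakdown and receptors, edgeR called 0 of 3 tested. Hnmt, the methyltransferase that breaks histamine down, had 7.59 ± 1.57 and 7.34 ± 0.943 CPM. The receptor Hrh1, with 34 to 77 counts per library, had 1.14 ± 0.174 and 1.68 ± 0.175 CPM (log2 fold change 0.55 ± 0.21, edgeR adjusted p = 0.133). Every treated sample lay above every control for Hrh1, as for 8.45% of all tested genes. The log2 fold change was -0.05 for this enzyme of breakdown and -1.36 for Hdc, the enzyme of synthesis, and neither passed the test.

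The group of IgE receptor signalling had 0 of 15 genes called, with a median log2 fold change of -0.27. The kinase Lyn, which phosphorylates the receptor chains, had 96.5 ± 14.97 and 61.1 ± 18.8 CPM (log2 fold change -0.66 ± 0.21, edgeR adjusted p = 0.0788). Fyn (-0.18 ± 0.12) and Plcg1 (0.0070 ± 0.15) did not pass the test either.

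Among other Mrgpr and peptide receptors edgeR called 0 of 8. The complement receptor C5ar1, also carried by neutrophils, had 48.4 ± 6.64 and 25.4 ± 10.9 CPM (log2 fold change -0.93 ± 0.28, edgeR adjusted p = 0.0706). Mrgprb1, a neighbour of Mrgprb2 in the same receptor family, was added after its values were seen and had 9.41 ± 3.16 and 9.76 ± 1.34 CPM. Of 7 genes for lipid mediators and of 4 other mast cell proteases, edgeR called 0. Gzmb, a granzyme that lymphocytes also make, had 3.53 ± 1.49 and 1.76 ± 0.655 CPM (log2 fold change -1.01 ± 0.36, edgeR adjusted p = 0.110). Mcpt1, the chymase of mucosal mast cells, did not pass the filter.

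**Figure D5:**
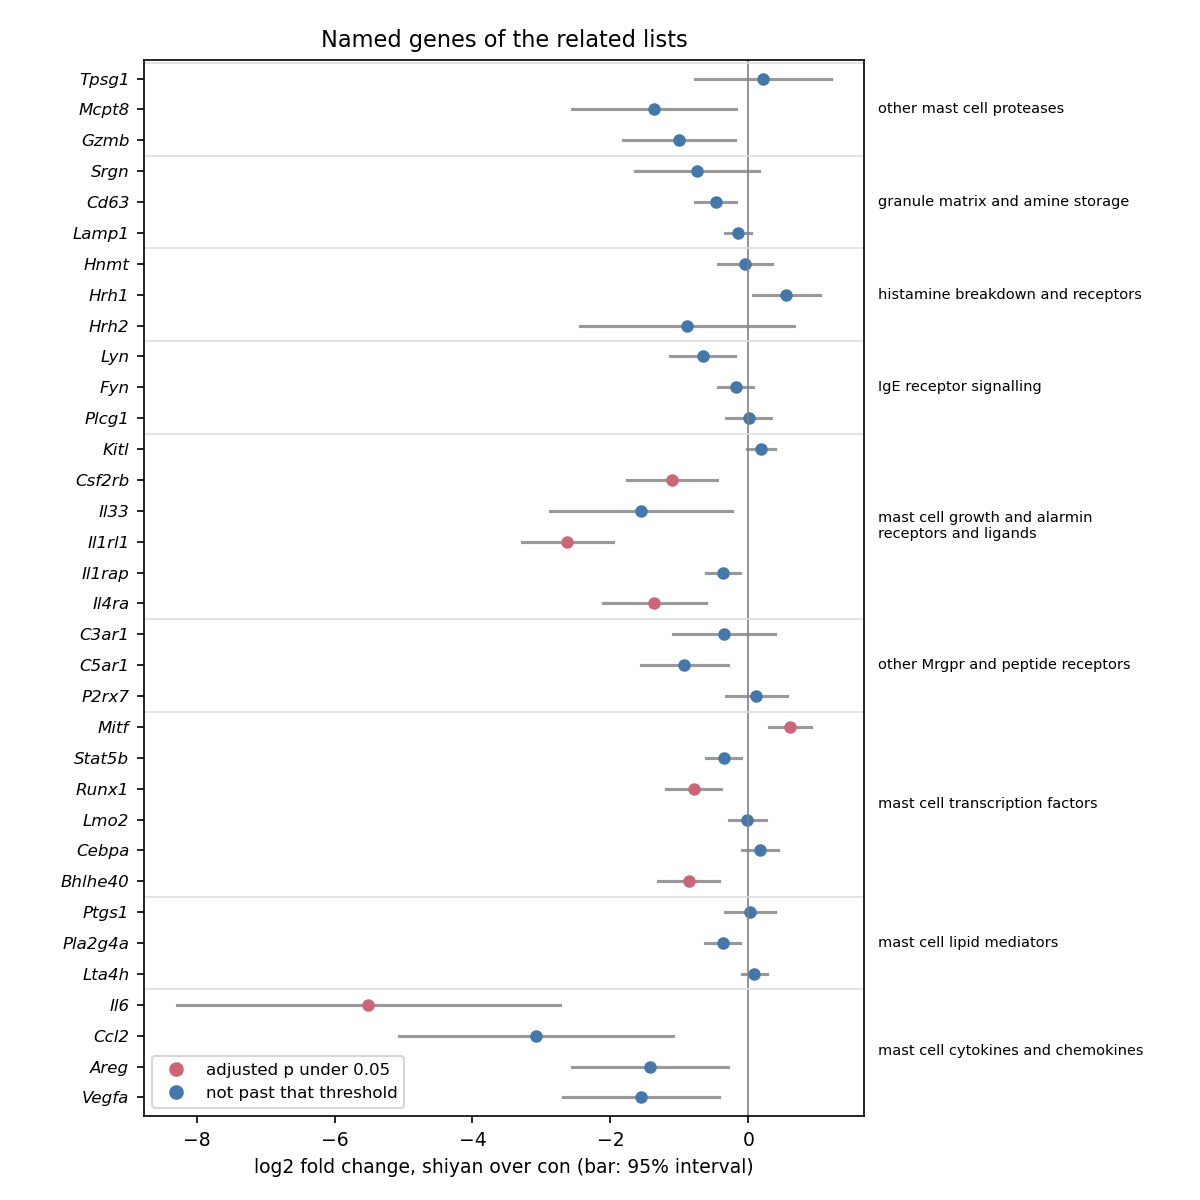
Log2 fold change, shiyan over con, with its 95% interval for the called genes and up to 3 further genes with the highest mean level in each of the 9 groups of related genes. The 7 genes called at an adjusted p under 0.05 are shown in a second colour, 6 of them left of 0 and Mitf right of it at 0.60.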

How the data were processed

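RNA from wound skin was sequenced in 8 libraries after depletion of ribosomal RNA, with random primers and dUTP in the second strand. The labels name Trizol and the methods an RNA Easy Fast kit for extraction. The deposited values are the authors' unnormalized counts for each gene. The aligner, counting program, genome build and strand setting are not given in the sources used here. Groups were taken from the sample titles, and 0 columns of sample values were left unused. Counts were filtered by filterByExpr, TMM-normalized and tested in R 4.3.3 with edgeR 4.0.16 (quasi-likelihood, Benjamini-Hochberg adjustment over 15147 genes, no covariate, threshold 0.05). Log2 CPM used a prior count of 2, and standard errors came from the F statistic. DESeq2 1.42.0 was an alternative. The steps were tested on simulated data. All pairs of libraries differed beyond sampling noise (smallest chi-square per degree of freedom 19.1). In the related groups, all called genes and up to 3 others of highest mean CPM qualified for naming. Members, lists, tests and alternatives were chosen with earlier results of these data known. Exon lengths came from GENCODE by symbol.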

Additional observations from a re-analysis of the deposited data

Results flagged for a closer look

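Among the levels of the 9 mast cell genes and their sum in each group of 4 samples, 20 sets were checked for a single sample far from the rest, and chance alone flags about 1 in 20 such sets. Mrgprb2 had 5.83 CPM in con1, where the gap to the nearest other control took up 0.920 of the range of the group. Mrgprb2 also had 5.13 CPM in shiyan2, with a gap of 0.877 of the range, the critical value being 0.829 for 4 samples.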

How the results depend on the processing

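With a skeletal muscle score as covariate the log2 fold changes turned to 0.22 for Cpa3, 0.31 for Mcpt4, 0.0448 for Cma1, 0.10 for Tpsb2 and 0.42 for Ms4a2. With a hair score they turned to 0.30, 0.27, 0.0107, 0.14 and 0.0771 for these genes and to 0.17 for Fcer1a. The summed markers behind each score did not overlap between the groups, so these fits cannot separate the score from the group. The muscle sums were 2242 to 4539 CPM in controls and 1972 to 2153 CPM in treated samples. The hair sums were 549 to 3472 CPM in controls and 4233 to 14846 CPM in treated samples. No member was called under either score, and the cause was not tested. Ms4a2, at -0.01, lay between -0.19 and 0.28 when single samples were left out. With the sample number as a replicate block it was 0.12, and no member was called. Deviations of same-numbered samples correlated at -0.101, -0.0623 and 0.323 for numbers 1, 2 and 5. Pairs with different numbers lay between -0.409 and 0.387. So few values cannot show whether the numbers pair samples, and the sources do not state it. Over all genes, the 583 called lower and 648 called higher became 1539 and 1206 with DESeq2, 253 and 301 with the block, 2 and 1 with the muscle score, 1 and 0 with the hair score, 0 and 0 without both shiyan2 and shiyan4 (chosen after seeing the data), and 189 and 326 with an absolute log2 fold change over 1 as well. Leaving out single samples gave 0 to 868 lower and 0 to 886 higher genes, and 0 to 1 member lower. Of the related genes, 19 were lower with DESeq2 and 0 with the muscle score, the hair score or without both samples. The single higher related gene was lost, leaving 0, with the block, either score, without both samples and at the fold limit. Leaving out single samples gave 0 to 16 lower and 0 to 1 higher. The log2 ratio of the summed levels was -0.37, and -0.83 with the proteases left out. Hdc, with means of 32.3 CPM in controls and 12.6 CPM in treated samples, had the highest level of the genes then left. The log2 fold changes of the others were -0.43 for Fcer1a, -0.01 for Ms4a2, 0.22 for Mrgprb2 and -0.51 for Gata2. The 95% intervals of the members spanned up to 2.26 on the log2 scale.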
